A study of Mus musculus with 25 samples.

Results

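The genes of the Notch pathway described here were followed through cultured hepatic progenitors, the tumours they form and the stroma of those tumours. The 10 members were the ligands Jag1, Jag2, Dll1 and Dll4, the receptors Notch1, Notch2, Notch3 and Notch4, and the target genes Hes1 and Hey1. They were taken by symbol from a table of 24984 genes, and all 10 were found there. Notch receptors are activated by ligands on a neighbouring cell, after which gamma-secretase releases the intracellular domain of the receptor. That domain enters the nucleus, joins the DNA-binding protein Rbpj and switches on genes such as Hes1 and Hey1. In the developing liver, Notch signalling steers bipotential progenitors towards the bile duct lineage, and in vessels Dll4, Notch1 and Notch4 belong to endothelial cells and Notch3 to mural cells.

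RNA was sequenced from 25 libraries in 7 groups. BMEL cells are a clonal line of bipotential progenitors from embryonic liver of a C57BL/6 by C3H mouse, and the 3 control cultures were described in the labels as carrying an empty vector (the text of the study names parental cells). RasLOW and RasHIGH cells, with 3 cultures each, carried human H-Ras G12V on a vector with a fluorescent reporter and were sorted by its intensity into populations whose distributions overlap. Cells of this kind were injected into the liver of athymic nude mice, which lack mature T cells but keep other leukocytes, and tumours that grew in the liver and in the peritoneum were collected. From each of 4 mice, fluorescent tumour cells and non-fluorescent stromal cells were sorted from both tumours, giving 4 groups of 4 libraries. The labels do not say which Ras population was injected, and the study's authors regard the peritoneal tumours as likely to stem from cells that escaped at injection. The labels give neither the age of the mice nor the time of collection. The cultures grew on collagen with insulin, IGFII and EGF in the medium, and the tumour cells were sorted as positive for the green fluorescence of the vector.

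Library totals ran from 20819000 to 51241300 counts (to 6 significant digits), at which 3 counts corresponded to between 0.0572 and 0.143 CPM (counts scaled to a common library total), a limit that covers counting error only. Levels are given as CPM scaled by TMM factors over the 25 libraries, and errors are SDs over cultures or mice. The tumour cell libraries held Krt19, a keratin of bile duct and progenitor cells, at 2283 ± 60.2 CPM in liver and 2373 ± 419 CPM in peritoneal tumours, while Epcam, a surface protein of epithelial progenitors, was at 0.0669 and 0.0488 CPM, so that 1 of these markers was present and the other near 0. The 10 biliary markers summed to between 3929 and 4240 CPM in liver and between 3405 and 4642 CPM in peritoneal tumour cells, overlapping the 2968 to 4155 CPM of RasHIGH cultures, and to between 822 and 1742 CPM in stromal cells. Of the 7 biliary markers tested between liver tumour cells and RasHIGH cultures, 2 were higher and 1 lower, with a median log2 fold change of -0.09. In 7 of the 8 tumour cell libraries the summed macrophage, fibroblast and leukocyte markers were between 0.261% and 0.968% of the stromal median of the same site. The library of peritoneal tumour cells of mouse 1 stood apart, at 4.25% for macrophage, 2.16% for fibroblast and 3.43% for leukocyte markers. Samples named as separate cultures or mice were treated as replicates, and p-values measure the spread between libraries of a group. Each mouse gave a library to all 4 sorted groups, but the mouse was a term only in an alternative model.

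Per exon length, Hes1 and Jag1 had the highest levels of the members in every group. In liver tumour cells Hes1 reached 214 ± 99.2 RPKM (CPM per kilobase of exon), Jag1 166 ± 23.8, Dll4 51.3 ± 8.48 and Notch2 23.8 ± 4.78 RPKM, while Notch1 and Notch3 stood at 0.461 ± 0.201 and 0.337 ± 0.123 RPKM. In liver stromal cells the leading members were Hes1 at 62.9 ± 17.3, Jag1 at 30.1 ± 3.27, Notch2 at 27.8 ± 2.63 and Notch1 at 23.5 ± 5.78 RPKM. Hes1 and Jag1 exchanged places in the cultures and the tumour cells when exons of all transcripts were counted as length instead of the longest coding transcript, so their order was not settled there. Notch2 was the leading receptor per length in every group except BMEL cells, where Notch1 led at 17.1 ± 8.29 against 10.9 ± 1.75 RPKM, a difference within the SD of Notch1.

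**Figure D1:**
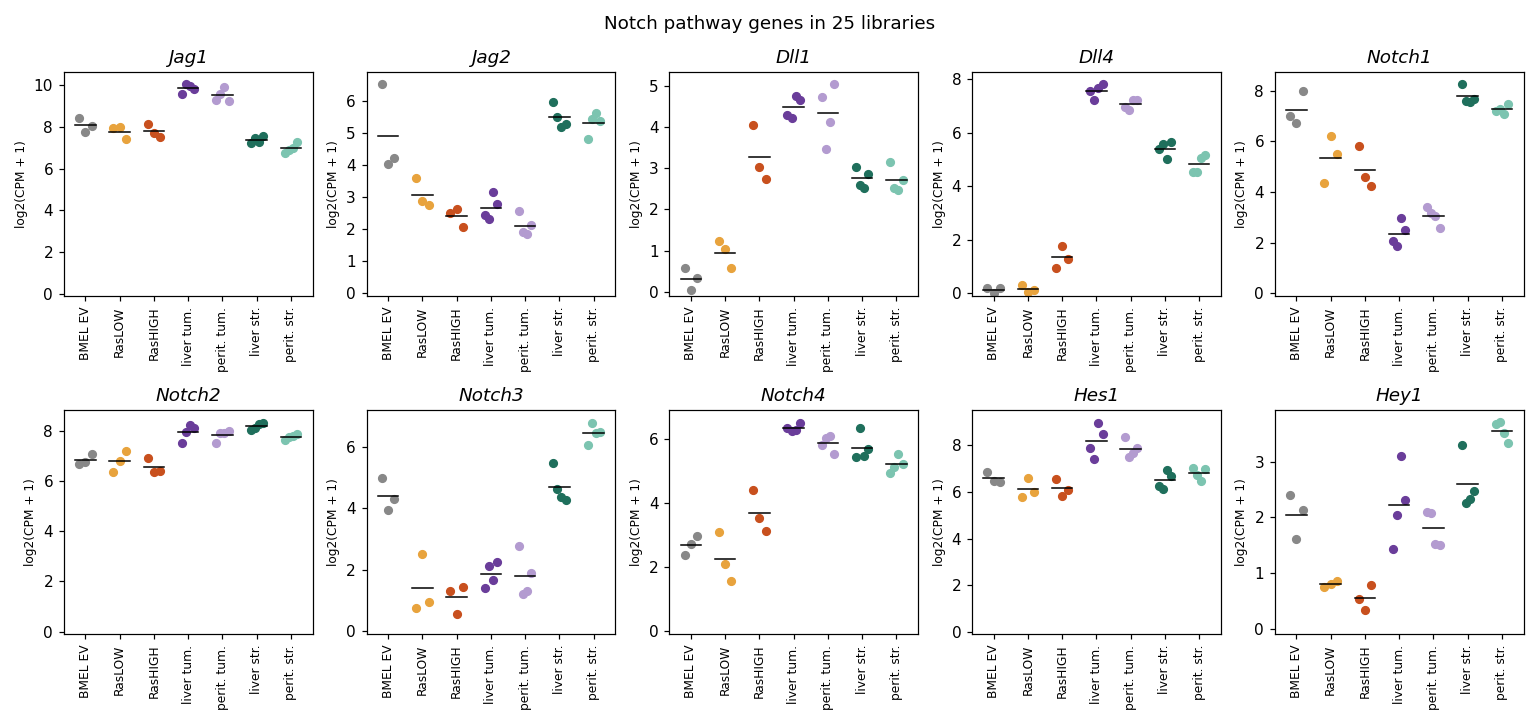
Each panel shows 1 gene on a log2(CPM + 1) axis, with 1 point per library in the 3 culture groups (control BMEL with empty vector, RasLOW and RasHIGH) and the 4 sorted groups, and a bar at the mean of the log2 values. Dll4 sits between 116 and 224 CPM in the 8 tumour cell libraries and between 22.1 and 49.1 CPM in the 8 stromal libraries, and no culture exceeded 2.44 CPM.

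The first question was how Notch genes respond to oncogenic Ras in culture. In RasHIGH cells, 2 ligands rose, and 1 ligand, 2 receptors and 1 target fell, so that 6 of 10 members were called at an adjusted p under 0.05 by edgeR's quasi-likelihood test, where 22.6% of the 12331 genes tested were called. Dll1, a Delta-type ligand, had 0.484, 0.0342 and 0.259 CPM in the BMEL cultures and 15.5, 7.14 and 5.70 CPM in the RasHIGH cultures. All RasHIGH values of Dll1 were above all BMEL values, and the log2 fold change was 5.12 (SE, the standard error, 0.73, adjusted p = 0.00375). With 1 library left out it ran from 4.59 to 5.96, the highest without the first BMEL culture. Dll1 had 14, 1 and 7 counts in BMEL cells, so the size of its fold change rests on few reads. Dll4, the ligand best known from sprouting vessels, had 4, 0 and 4 counts in BMEL and 25, 57 and 32 counts in RasHIGH cells (0.937, 2.44 and 1.44 CPM). The groups did not overlap, but the BMEL values lie near the limit of 3 counts, and the log2 fold change of 3.99 (SE 0.78, adjusted p = 0.0120) rests on few reads. In bulk RNA, fewer cells expressing a gene and less RNA per cell cannot be told apart.

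Promoter windows were read for the 2 ligands that rose, because these genes moved together in RasHIGH cells. RefSeq on build GRCm38.p6 gave windows for 8 of the 10 members (9 windows, Dll1 having 2 starts), all of them ligands or receptors. The targets Hes1 and Hey1 had no window and were not searched. The 250 bases before the second Dll1 start lie on the minus strand at chr17:15376933-15377182, and those of Dll4 on the plus strand at chr2:119325534-119325783. Both are printed 5′ to 3′ with matches to TGANTCA in capitals. This pattern is looser than the AP-1 site, since any base was accepted at N.
Dll1: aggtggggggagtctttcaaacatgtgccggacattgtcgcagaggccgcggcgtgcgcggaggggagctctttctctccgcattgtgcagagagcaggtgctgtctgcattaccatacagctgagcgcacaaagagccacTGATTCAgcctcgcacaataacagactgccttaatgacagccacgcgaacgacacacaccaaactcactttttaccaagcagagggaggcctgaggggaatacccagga
Dll4: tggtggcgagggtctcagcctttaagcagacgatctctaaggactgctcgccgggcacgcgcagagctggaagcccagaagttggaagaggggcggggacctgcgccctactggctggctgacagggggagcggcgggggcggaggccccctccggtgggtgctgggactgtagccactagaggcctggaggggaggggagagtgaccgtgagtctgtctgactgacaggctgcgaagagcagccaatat
The window of the second Dll1 start held 1 match to this loose pattern, TGATTCA with T at N, beginning 109 bases before the start. That of the first Dll1 start and that of Dll4 held 0, and 6.75% of the 32851 mouse promoter windows of this length held at least 1. The letters TGGGAA or TTCCCA, the core bound by Rbpj, were in none of the windows of these 8 members, against 21.6% of all windows. A match or its lack describes only these letters.

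Jag2, a Serrate-type ligand, had 90.04, 15.2 and 17.3 CPM in BMEL cells and 4.57, 5.13 and 3.14 CPM in RasHIGH cells. The first BMEL culture was the highest by a wide margin, yet no RasHIGH value reached the lowest BMEL value. The log2 fold change of Jag2 was -3.30 (SE 0.75, adjusted p = 0.0203), and -1.95 (adjusted p = 0.00828) without the first BMEL culture. Its call was lost without the second or the third RasHIGH culture (adjusted p = 0.0642 and 0.0643). Jag1, the ligand needed for bile duct formation, lay between 184 and 287 CPM in RasHIGH against 220.0 and 349 CPM in BMEL cells, with overlapping groups and an adjusted p = 0.334.

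Notch1 had 129, 105 and 252 CPM in BMEL cells and 55.4, 23.0 and 18.04 CPM in RasHIGH cells. Every RasHIGH value was below every BMEL value, with a log2 fold change of -2.38 (SE 0.50, adjusted p = 0.0158). Without the second RasHIGH culture its adjusted p was 0.0625, and without the first the log2 fold change was -3.00. Notch3, with 30.7, 14.4 and 18.8 CPM in BMEL cells, was at 1.4995, 0.470 and 1.71 CPM in RasHIGH cells. It fell 17.8-fold (log2 fold change -4.15, SE 0.51, adjusted p = 0.00213). Notch2 kept overlapping values (80.4 to 121 against 102 to 136 CPM, adjusted p = 0.306), although without the first RasHIGH culture its adjusted p was 0.0388. Notch4 stood at 20.1, 10.6 and 7.81 CPM in RasHIGH against 4.22, 5.61 and 6.91 CPM in BMEL cells, without overlap, and its adjusted p was 0.0626 (0.0355 without the third RasHIGH culture).

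Of the targets, Hey1, a basic helix-loop-helix repressor, had 4.28, 2.05 and 3.40 CPM in BMEL and 0.450, 0.257 and 0.718 CPM in RasHIGH cells. Its fall was 6.99-fold (log2 fold change -2.80, SE 0.48, adjusted p = 0.00723), with no overlap between the groups. Hes1, the repressor most widely used as a Notch readout, was 113, 87.7 and 84.6 CPM in BMEL and 93.7, 55.9 and 65.7 CPM in RasHIGH cells. These ranges overlapped and the test was not passed (adjusted p = 0.188, or 0.0212 without the first RasHIGH culture). The first and second BMEL cultures were sequenced in lane 3 and the other cultures in lane 4. With lane in the model, the difference from RasHIGH or RasLOW cells therefore rests on BMEL culture 3 alone. A call lost in this way cannot be told apart from the loss of control cultures. With lane as a term in the model, 2 of the 6 calls (Notch1 and Notch3) remained, where 4.42% of all genes were called.

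In RasLOW cells 2 of the 9 members tested passed, both lower, where 5.96% of 12307 genes were called. Notch3 was at 0.675, 4.65 and 0.929 CPM in the RasLOW cultures, 10.2-fold below BMEL cells (log2 fold change -3.35, SE 0.75, adjusted p = 0.0450). Hey1 had 0.675, 0.749 and 0.807 CPM, a log2 fold change of -2.15 (SE 0.40, adjusted p = 0.0260). Both lay wholly below BMEL, but both calls were lost without any 1 of the 3 BMEL cultures, RasLOW culture 1 or RasLOW culture 3 (adjusted p from 0.0818 to 0.142 for Notch3 and from 0.0536 to 0.0955 for Hey1), and with lane as a term no member was called. Without the second RasLOW culture the log2 fold change of Notch3 was -4.78. Jag2 and Notch1 did not overlap with BMEL either, at 5.69 to 11.0 and 19.6 to 73.6 CPM, with adjusted p = 0.0963 and 0.0888. Dll1 lay above BMEL cells, though its lowest RasLOW value (0.4845 CPM) all but met the highest BMEL value (0.4837 CPM) (log2 fold change 1.84, adjusted p = 0.226). Dll4, with 7, 1 and 2 counts in RasLOW cells, did not pass the filter on low counts.

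Between RasHIGH and RasLOW cells, no member was called, where 0.0752% of 11962 genes (9 genes) were called and 1170 genes had an unadjusted p under 0.05. Dll1 was 1.35, 1.04 and 0.484 CPM in RasLOW, below all RasHIGH values, and its log2 fold change of 3.29 (SE 0.54) had an adjusted p = 0.0870 by edgeR, against 2.38e-07 by DESeq2. Dll4 had a log2 fold change of 3.70 (SE 0.73) with an adjusted p = 0.135 by edgeR and 0.00116 by DESeq2. Notch4 and Jag2 also had separate ranges, with adjusted p = 0.386 and 0.508. Among the 56 other pathway genes, 5 rose and 3 fell of 44 tested in RasHIGH against BMEL cells, which is 18.2%, below the 22.6% of all genes. The risers included the nuclear partner Rbpj (log2 fold change 0.67, adjusted p = 0.0334) and the co-activators Maml1 (0.84, adjusted p = 0.0214) and Maml3 (1.17, adjusted p = 0.0487), and those that fell were Lfng, which glycosylates receptors (-1.49, adjusted p = 0.00647), the gamma-secretase subunit Aph1b (-1.61, adjusted p = 0.0169) and the regulator Dtx4 (-0.78, adjusted p = 0.0475). None of 44 was called in RasLOW cells or between RasHIGH and RasLOW cells.

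**Figure D2:**
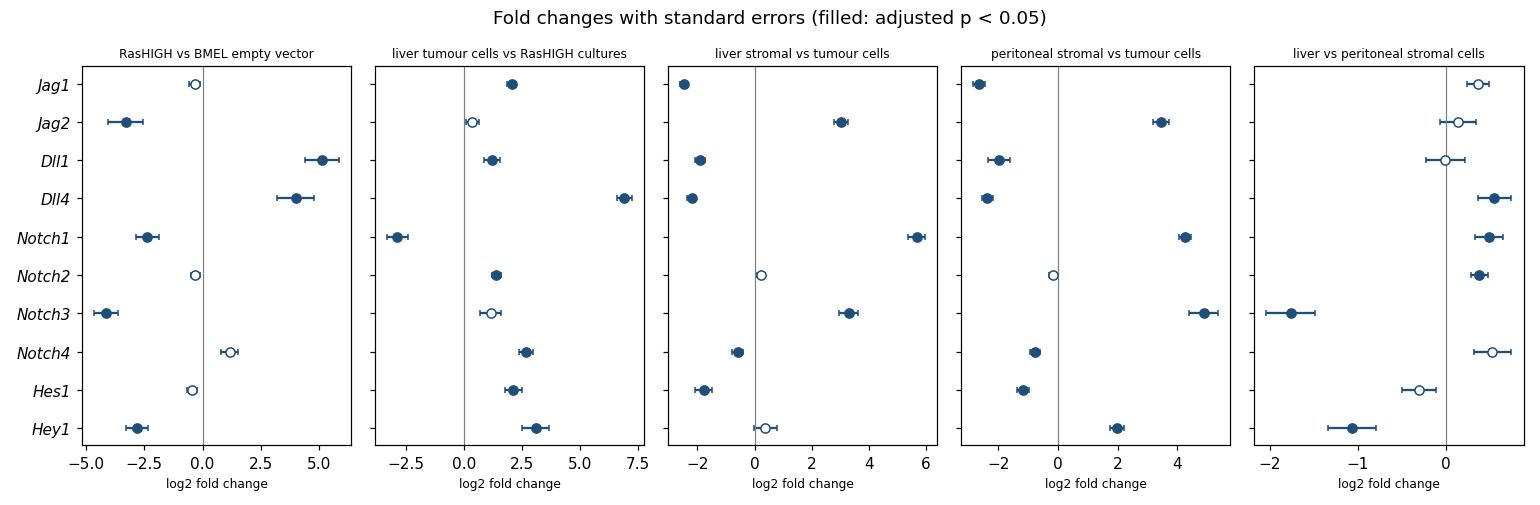
Points show the log2 fold change of each gene with its SE in 5 comparisons, the first named group over the second, and filled points passed an adjusted p under 0.05 in edgeR's quasi-likelihood test. Dll4 has the largest rise of the 10 genes in liver tumour cells over RasHIGH cultures (6.92), and Notch1 the largest value in liver stromal over liver tumour cells (5.67).

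The tumour cells were next set against RasHIGH cultures, a comparison chosen after the values of the members had been seen, which mixes growth in a mouse with sorting and with the unstated injected population. All RasHIGH cultures were sequenced in lane 4 and all tumour cell libraries in lanes 1 to 3, so that lane and group cannot be told apart. Of 10 members, 7 were higher and 1 lower in liver tumour cells, where 45.1% of 12971 genes were called, and 6 were higher and 1 lower in peritoneal tumour cells, where 37.9% of 12791 genes were called. The 2 comparisons share the RasHIGH libraries. Dll4 was at 189, 149.6, 206 and 224 CPM in the liver tumour cells of mice 1 to 4 and at 125, 116, 148 and 149 CPM in the peritoneal ones. Every tumour value exceeded every culture value. The fitted difference between the groups was 121-fold in liver (log2 fold change 6.92, SE 0.33, adjusted p = 4.21e-06) and 85.2-fold in peritoneal tumours (6.41, SE 0.32, adjusted p = 4.25e-05).

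Notch4, the receptor named for endothelium, was 80.8, 75.3, 77.5 and 90.3 CPM in liver and 55.3, 64.4, 67.8 and 45.4 CPM in peritoneal tumour cells. Both sets lay above the 3 RasHIGH cultures (log2 fold changes 2.66 and 2.19, adjusted p = 2.14e-04 and 0.00189). Jag1 reached 759.8, 1058, 1014 and 897 CPM in liver tumour cells, 4.15-fold above RasHIGH cultures (adjusted p = 8.60e-05), and 633, 779, 971 and 601 CPM in peritoneal tumour cells (3.33-fold, adjusted p = 0.00109). Hes1 rose 4.38-fold and 3.31-fold (adjusted p = 0.00182 and 0.00199), Hey1 8.59-fold and 5.42-fold from under 1 CPM (adjusted p = 0.00279 and 0.00569), and Notch2 2.63-fold and 2.42-fold (adjusted p = 8.61e-04 and 0.00180).

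Notch1 moved the other way, to 3.20, 2.70, 6.95 and 4.65 CPM in liver and 9.51, 7.97, 7.26 and 5.04 CPM in peritoneal tumour cells. All 8 values were below the lowest RasHIGH culture (log2 fold changes -2.88 and -2.09, adjusted p = 0.00106 and 0.00518), and without the first RasHIGH culture the log2 fold changes of Notch1 were -2.23 and -1.45. Dll1 was higher in liver tumour cells (17.7 to 26.0 CPM, log2 fold change 1.20, adjusted p = 0.0182), a call lost without the second or the third RasHIGH culture (adjusted p = 0.0698 and 0.0516). In peritoneal tumour cells Dll1 ran from 10.0 to 31.8 CPM with an adjusted p = 0.0840, which was 0.0148 without the first RasHIGH culture and 0.0392 without the cells of mouse 2. Jag2 was not called at either site (adjusted p = 0.338 and 0.422). Notch3 stayed between 1.32 and 5.81 CPM in tumour cells, with adjusted p = 0.0721 in liver (0.0410 without the first RasHIGH culture) and 0.176 in peritoneal cells.

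Of the other pathway genes, 12 were higher and 4 lower of 45 tested in liver tumour cells (35.6% called, against 45.1% of all genes), and 11 higher and 4 lower of 46 in peritoneal tumour cells (32.6%, against 37.9%). Nrarp, a target that feeds back on the receptor, was higher at both sites (log2 fold changes 2.11 and 1.90, adjusted p = 0.00329 and 3.79e-04), as was the ligand ligase gene Neurl1a (1.42 and 2.32, adjusted p = 0.0247 and 0.00622), and Neurl3 was higher in liver (1.64, adjusted p = 0.00114). Heyl had 0 counts in the 3 RasHIGH cultures and between 13 and 54 counts in the peritoneal tumour cell libraries. Another ligand ligase gene, Neurl1b, was lower at both sites (-4.13 and -2.90, adjusted p = 4.65e-05 and 0.00861), as was the corepressor Ncor1 (-0.57 and -0.58, adjusted p = 0.0131 and 0.0164). Maml2 was lower in liver (-0.85, adjusted p = 0.0478) and Rbpj in peritoneal tumour cells (-0.48, adjusted p = 0.0302). Macrophage markers were higher in tumour cells than in RasHIGH cultures for 6 of 6 genes tested in liver and 3 of 5 in peritoneal tumours. Fibroblast markers were higher for 6 of 6 and 8 of 8, and mural markers for 3 of 4 and 5 of 5. For endothelial markers the counts were 4 of 5, with 1 lower, and 7 of 8. The part of these cells in the differences was not tested.

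Sorting separated tumour cells from the stroma that surrounds them, which allows the members to be divided between the compartments. In the liver tumours, 8 of 10 members differed, 3 higher and 5 lower in stromal cells, where 77.8% of 14620 genes were called. In the peritoneal tumours 9 of 10 differed, 4 higher and 5 lower, where 76.6% of 14584 genes were called. Since most genes differ between these compartments, these shares are close to the background, and only the size and direction of each gene carry information.

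Jag1 was at 151, 178, 156 and 190.2 CPM in liver stromal cells and at 107, 120.2, 127 and 157 CPM in peritoneal stromal cells. It was 5.55-fold higher in tumour cells in liver (adjusted p = 5.64e-09) and 6.26-fold higher in peritoneal tumours (adjusted p = 5.53e-06), with no overlap. Dll1 followed the same direction, between 4.52 and 7.91 CPM in the 8 stromal libraries, and was 3.74-fold and 3.93-fold higher in tumour cells (adjusted p = 1.17e-06 and 9.95e-04). Jag2 went the other way, with 60.8, 44.0, 35.4 and 37.7 CPM in liver stromal against 4.37, 3.90, 7.76 and 5.82 CPM in liver tumour cells. The stromal values of Jag2 were 8.13-fold higher in liver and 11.0-fold higher in peritoneal tumours (adjusted p = 2.34e-07 and 6.17e-06).

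Dll4 was measured in stromal cells at 41.1, 46.6, 31.8 and 49.1 CPM in liver and 22.3, 22.1, 32.5 and 35.0 CPM in peritoneal tumours. Tumour cells were 4.59-fold higher in liver (log2 fold change of stromal over tumour cells -2.20, SE 0.16, adjusted p = 1.03e-07) and 5.15-fold higher in peritoneal tumours (-2.36, SE 0.18, adjusted p = 7.60e-06). Notch4 was 42.2, 79.6, 43.3 and 50.9 CPM in liver stromal cells and 30.0, 33.7, 45.5 and 36.5 CPM in peritoneal ones. Its groups overlapped at each site, and the differences were 1.51-fold and 1.71-fold in favour of tumour cells (adjusted p = 0.00971 and 0.00215).

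Because Dll4 and Notch4 are known from endothelium, endothelial markers were set beside them. The summed level of 11 of the 12 markers, all except Cdh5, ran from 5.47 to 7.57 CPM in liver tumour cells and from 7.28 to 55.8 CPM in peritoneal ones, of which the highest was mouse 1, against 454 to 862 and 385 to 542 CPM in the stromal cells. Tumour cell means of those 11 genes were between 0.410% and 2.94% of the liver stromal mean, with a median of 0.824%, and between 3.71% and 6.39% of the peritoneal stromal mean, or between 1.07% and 3.17% without the tumour cells of mouse 1. The same ratio was 456% and 481% for Dll4 and 150.0% and 159.9% for Notch4, and without mouse 1 the peritoneal values were 492% and 163%. Cdh5, the cadherin of endothelial junctions, behaved differently from the 11 others and was singled out after its values were seen, with 105, 101, 224 and 69.5 CPM in liver tumour cells, 109, 231, 49.4 and 166 CPM in peritoneal tumour cells and 70.5% and 101% of the stromal mean. Cdh5 was at 0 to 0.148 CPM in BMEL cells and 5.83 to 10.6 CPM in RasHIGH cells (adjusted p = 8.55e-04, with 6 counts in all in BMEL cells, too few for an exact fold), and at 2.95, 0.358 and 0.323 CPM in RasLOW cells. Pecam1, by contrast, had a mean of 1.94 CPM in tumour cells of the liver and 206 CPM in its stromal cells. A further list of 5 arterial endothelial markers, which overlaps the list above, summed to between 247 and 275 CPM in liver and between 173 and 234 CPM in peritoneal tumour cells. Its sums were 83.0 to 121 and 56.1 to 78.2 CPM in the stromal cells, and 166 to 219 CPM in RasHIGH cultures. Of these 5 genes, 4 were higher and 1 lower in stromal cells at each site, so the higher sum in tumour cells came from 1 gene. Without the peritoneal tumour cells of mouse 1, the peritoneal log2 fold change of Dll4 was -2.31 and that of Notch4 was -0.72, with adjusted p = 5.24e-06 and 0.00566.

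**Figure D3:**
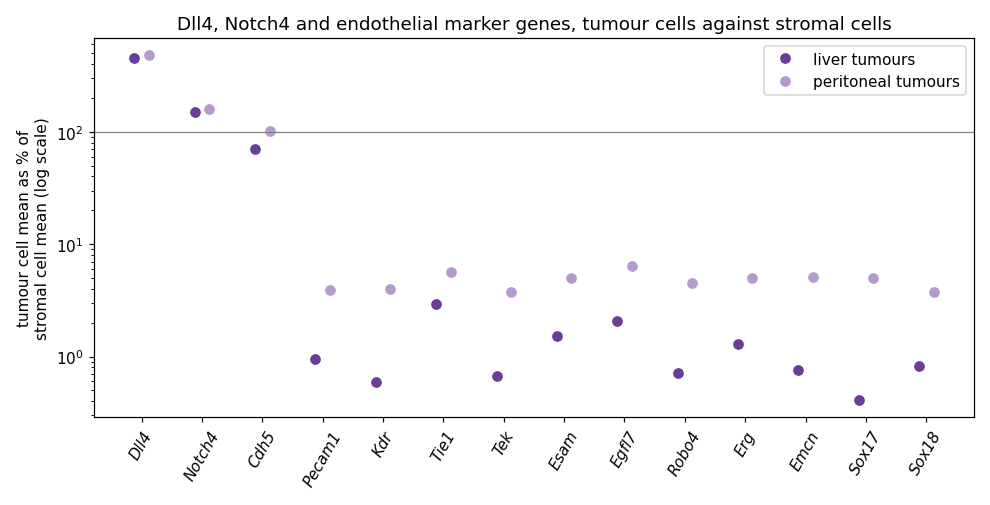
Each point is the mean CPM in tumour cells as a percentage of the mean in stromal cells of the same site, on a log axis, for Dll4, Notch4 and 12 endothelial marker genes, with a line at 100%. Dll4 and Notch4 lie above the line at both sites, Cdh5 at 70.5% and 101%, and the other 11 genes between 0.410% and 6.39%.

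The receptors divided between the compartments. Notch1 was at 304, 194, 188 and 205 CPM in liver stromal cells and 146, 155, 136 and 179.8 CPM in peritoneal ones. Stromal cells were 51.1-fold higher in liver (log2 fold change 5.67, SE 0.29, adjusted p = 5.62e-09) and 19.3-fold higher in peritoneal tumours (4.27, SE 0.20, adjusted p = 9.48e-07). Notch3 had 43.9, 23.6, 19.8 and 18.5 CPM in liver stromal and 66.0, 109, 86.4 and 87.9 CPM in peritoneal stromal cells. No tumour cell library was above 5.81 CPM of Notch3, and stromal cells were 9.78-fold and 29.4-fold higher (adjusted p = 2.43e-06 and 2.96e-05). Without the peritoneal tumour cells of mouse 1, which held the highest tumour value of Notch3 (5.81 CPM), the peritoneal log2 fold change was 5.62 instead of 4.88. Mural markers, whose cells carry Notch3 in vessels, summed to 199 to 454 CPM in liver stromal and 681 to 978 CPM in peritoneal stromal cells. Their sum moved with Notch3 between the sites, but of the 6 genes 4 were lower in liver stroma and 2 were not called. Smooth muscle markers moved the same way (70.2 to 232 against 339 to 694 CPM, 2 of 4 genes lower in liver stroma), as did fibroblast markers (8 of 8 genes lower). The part of these cells in the level of Notch3 was not tested.

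Notch2, by contrast, did not separate the compartments. Its 16 sorted values ran from 180.2 to 320.1 CPM, and the log2 fold changes of stromal over tumour cells were 0.22 in liver (adjusted p = 0.173) and -0.17 in peritoneal tumours (adjusted p = 0.220). With the mouse as a block the liver value of Notch2 passed (0.24, adjusted p = 0.0337), as it did without the liver tumour cells of mouse 3 (0.33, adjusted p = 0.0480).

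Hes1 was 235, 166, 498 and 354 CPM in liver tumour cells and 75.4, 67.9, 123 and 103 CPM in liver stromal cells. Tumour cells were 3.42-fold higher in liver (adjusted p = 1.98e-04) and 2.27-fold higher in peritoneal tumours (adjusted p = 6.29e-04), with no overlap at either site. Hey1 stayed low and went otherwise, at 3.80 to 8.88 CPM in liver stromal against 1.69 to 7.58 CPM in liver tumour cells (adjusted p = 0.413, or 0.0482 without the liver tumour cells of mouse 3). In the peritoneum Hey1 was 3.96-fold higher in stromal cells, at 11.8, 12.04, 10.4 and 9.13 CPM against 3.30, 3.21, 1.89 and 1.84 CPM (adjusted p = 8.80e-05). The targets thus moved in different directions between the same samples in peritoneal tumours.

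Of 56 other pathway genes, 50 were tested in each stroma comparison, with 24 higher and 13 lower in liver stromal cells and 19 higher and 17 lower in peritoneal ones. These are 74.0% and 72.0% of the genes tested, against 77.8% and 76.6% of all genes. The median log2 fold change of the tested genes was 0.26 in liver and 0.12 in peritoneal tumours, against -0.00 and -0.07 over all genes. In liver, the largest stromal values belonged to Dtx1, a ubiquitin ligase of the pathway, the target Heyl and the fringe enzyme Mfng. Dtx1 had 1 count over the 4 libraries of liver tumour cells against 2.05 ± 0.144 CPM in liver stromal cells, too few for a fold change. Heyl was at 14.3 ± 8.28 CPM in liver stromal cells and at 0.0860 ± 0.0574 CPM in tumour cells, which held 13 counts in all (log2 fold change 7.26, adjusted p = 2.67e-07, resting on few reads), and Mfng at 21.5 ± 1.64 and 0.149 ± 0.110 CPM, with 20 counts in tumour cells (7.22, adjusted p = 1.28e-09). Dlk2, a non-canonical ligand, and Nrarp were higher in liver tumour cells (log2 fold changes -1.82 and -1.48). In peritoneal tumours the non-canonical ligand Dlk1 (5.94, adjusted p = 6.82e-05), the gamma-secretase gene Aph1c (5.93, adjusted p = 3.32e-05) and Heyl (5.45, adjusted p = 2.65e-05) led in stromal cells, while Dlk2, Nrarp and Hes6 were higher in tumour cells (-3.52, -1.69 and -1.15). Dlk2 had 3, 6, 7 and 9 counts in the peritoneal stromal libraries, so its fold change rests on few reads. Of the 4 libraries of peritoneal tumour cells, that of mouse 1 held the most counts of Dlk1 (10), Aph1c (17) and Heyl (54), and the part of other cells in it was not tested.

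**Figure D4:**
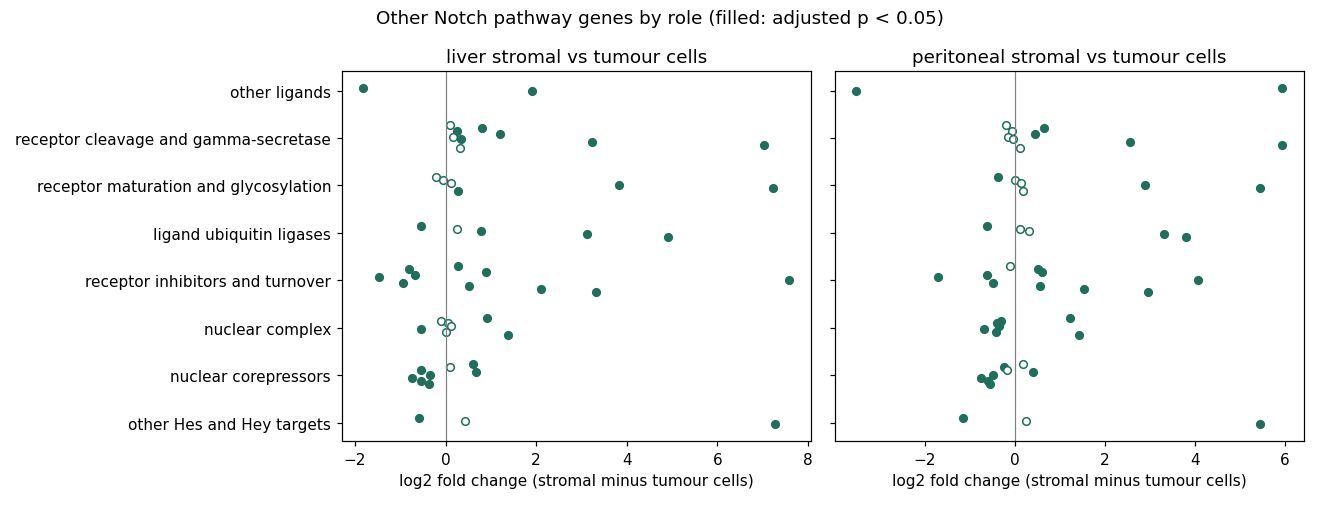
Each point is the log2 fold change of stromal over tumour cells of 1 gene of the pathway outside the 10 members, in rows by role, with filled points for an adjusted p under 0.05. In each row except that of nuclear corepressors the largest values lie on the stromal side, with Heyl at 7.26 in liver and 5.45 in peritoneal tumours. The highest point in liver, Dtx1, rests on 1 count in tumour cells, and that of Heyl on 13 counts.

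Liver and peritoneal tumours of the same mice were compared next, without the mouse as a term in the main model. In tumour cells no member was called, where 3.20% of 13074 genes were called and 2641 genes had an unadjusted p under 0.05. Dll4 and Notch4 had separate ranges, with liver higher by 1.43-fold and 1.39-fold (adjusted p = 0.0612 and 0.0623), and with the mouse as a block Dll4 was called (adjusted p = 0.0389). By DESeq2 both passed (adjusted p = 0.00409 and 0.00610). For Jag1, Jag2, Dll1, Notch1, Notch2, Notch3, Hes1 and Hey1 the ranges overlapped, with adjusted p from 0.184 to 0.959. Of the 45 other pathway genes tested, Rbpj was higher in liver (log2 fold change 0.41, adjusted p = 0.0426) and Neurl1a and Psen2 lower (-0.90 and -0.56, adjusted p = 0.0479 and 0.0174).

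In stromal cells, 5 of 10 members were called, 3 higher and 2 lower in liver, where 33.4% of 14755 genes were called. Notch3 was the largest, 3.39-fold lower in liver stromal cells (log2 fold change -1.76, SE 0.28, adjusted p = 0.00104), and all 4 peritoneal values exceeded all 4 liver values. Hey1 was 2.09-fold lower in liver stroma (adjusted p = 0.0130), again with separate ranges. Notch2 and Notch1 were higher in liver, by 1.30-fold and 1.41-fold (adjusted p = 0.0109 and 0.0405), and Dll4 by 1.46-fold with overlapping ranges (adjusted p = 0.0475).

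The Notch1 call was lost without the liver cells of mouse 1 or 4 or the peritoneal cells of mouse 1, 2 or 3 (adjusted p from 0.0583 to 0.117). That of Dll4 was lost without the liver cells of mouse 1, 2 or 4 or the peritoneal cells of mouse 1, 2 or 3 (adjusted p from 0.0522 to 0.130). With the mouse as a block Dll4 was not called (adjusted p = 0.0530) and Jag1 was (0.0103 against 0.0529 without it). Jag1 was also called without the peritoneal stromal cells of mouse 4 (adjusted p = 0.0157). Fibroblast markers moved with the site, from 4112 to 8393 CPM in liver and from 55937 to 83903 CPM in peritoneal stroma, and endothelial markers with Cdh5 included ran from 606 to 1134 and from 505 to 735 CPM. Leukocyte markers were higher in liver stroma for 6 of 8 genes and lower for 1 (2671 to 3157 against 1675 to 2901 CPM), and sinusoidal endothelial markers were higher for 4 of 6 (1021 to 1545 against 639 to 1298 CPM). The part of these cells in the differences was not tested. Of the 51 other pathway genes tested, 10 were higher and 7 lower in liver stroma (33.3%, against 33.4% of all genes), among them Dlk1 (log2 fold change -4.88, adjusted p = 4.46e-05), Numbl (-1.63, adjusted p = 1.69e-05) and Dlk2 (1.51, adjusted p = 0.0126). The values of Dlk1, with 30 counts in all in liver stroma, and of Dlk2, with 3 to 9 counts per peritoneal stromal library, rest on few reads.

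The difference between sites was itself compared between stromal and tumour cells, where 14.3% of 15331 genes were called. Notch1 was the 1 member called, with a site difference (liver over peritoneum) larger in stromal cells by 1.35 on the log2 scale (SE 0.36, adjusted p = 0.0193). In the stroma Notch1 was higher in liver, while in tumour cells it was 4.37 ± 1.91 CPM in liver and 7.44 ± 1.86 CPM in peritoneal tumours. The call was lost without the peritoneal stromal cells of mouse 2 or mouse 3 (adjusted p = 0.0542 and 0.0605). Notch3 and Hey1 had adjusted p = 0.0741 and 0.0530, and each passed without the peritoneal tumour cells of mouse 1 (0.00349 and 0.0354) and without the liver stromal cells of mouse 1 (0.0315 and 0.0209). Hey1 also passed without the liver tumour cells of mouse 1 (0.0166).

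The genes with the most similar pattern were listed by Pearson's r of log2(CPM + 1) over the 16 sorted libraries, among 13353 genes. These libraries hold both tumour and stromal cells, so r also carries the difference between them where a gene has one. The nearest were Pde4dip for Jag1 (r = 0.995), Lilr4b for Jag2 (0.986), Rnf141 for Dll1 (0.964) and Dnaaf5 for Dll4 (0.986). For the receptors they were Ece1 for Notch1 (0.993), Nr1h2 for Notch2 (0.955), Aldh1l2 for Notch3 (0.991) and Phf21b for Notch4 (0.924). For the targets they were Ecm1 for Hes1 (0.928) and Fgf2 for Hey1 (0.901). Nrarp, a pathway gene, was among the 3 nearest to Hes1 (0.919).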

How the data were processed

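The deposited table holds raw read counts per gene, not normalized, which the authors made from reads that the methods of the study describe as mapped to mm9 with TopHat2. The submitters' processing notes name mm8, mm10, FastQC and Bowtie 0.12.2, so the build of the counts is not settled. The counting program, annotation and use of strand are not given in the sources used here. Groups were taken from sample titles. The 10 members and all gene lists were chosen with earlier results of these data known.

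Genes were tested with edgeR 4.0.16 in R 4.3.3 (quasi-likelihood test, limma 3.58.1 underneath, filterByExpr with a minimum count of 10, TMM factors, Benjamini-Hochberg adjustment over all genes tested, threshold 0.05), on the libraries of the groups compared, or on all 16 sorted libraries for the difference between site effects. CPM used TMM factors over the 25 libraries, and plots and pattern likeness used log2 of CPM plus a pseudocount of 1. RPKM used the exon length of the longest protein-coding transcript on mm9. All 10 members were named, with at most 3 other pathway genes per direction, by size of change among those called, and the 3 genes nearest in pattern to each member. Genes outside this rule (Krt19, Epcam, Cdh5, Pecam1) come from marker lists and were picked after their values were seen, as were the endothelial sum without Cdh5 and the shares without mouse 1.

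The scripts were tested on simulated data, with 100 genes changed by 1 and 100 by 2 on the log2 scale. Changes of 2 were all recovered in each comparison simulated. Changes of 1 were recovered for 73 genes between RasHIGH and RasLOW cells, 88 between stromal cells of the sites and 40 for the difference between site effects. The simulated spread was the same for all genes and lower than that of several members in the cultures. Same-numbered sorted samples come from the same mouse, and the correlation of their deviations from group means ran from -0.160 to 0.339 over the 4 pairs of groups. DESeq2 1.42.0, other scalings, no filter, a mouse or replicate block, lane as a term, the thresholds of the study and leaving out each library were tried. The thresholds of the study on fold change and p were applied to the unadjusted p of edgeR. Its removal of genes at low RPKM was not repeated.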

Additional observations from a re-analysis of the deposited data

Results flagged for a closer look

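The stromal cells of the liver tumour of mouse 1 held 304 CPM of Notch1, far from the other 3 mice at 188 to 205 CPM. The same library held 8.88 CPM of Hey1, against 3.80 to 4.57 CPM in the others. The gap over the range was 0.857 and 0.849, above Dixon's critical value for 4 samples, and 2 of 40 groups examined went past it, where chance gives about 1 in 20. The site difference of Notch1 (log2 fold change of liver over peritoneum) had opposite signs, at 0.49 in stromal cells and -0.78, not called, in tumour cells. In the test of stromal minus tumour site difference itself, the value was 1.35 (edgeR's quasi-likelihood test, adjusted p = 0.0193).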

How the results depend on the processing

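Over 99 fold changes of members and 1506 alternative values, 1368 kept their direction and their side of the threshold, 47 lost the call, 46 gained one and 45 changed sign, 36 of these when 1 library was left out. The cause of these changes was not tested. For RasLOW against BMEL cells, 2 members were called, against 4 by DESeq2, 0 with the replicate block and 0 with lane. For RasHIGH against BMEL cells, 6 were called, against 2 with lane. For RasHIGH against RasLOW cells, 0 were called, against 2 by DESeq2, 1 without the filter and 2 at the thresholds of the study, applied here to the unadjusted p. Between tumour cells of the sites, 0 were called, against 2 by DESeq2, 1 without the filter and 1 with the mouse as a replicate block. Between stromal cells of the sites, 5 were called, against 2 at the thresholds of the study. For the difference between site effects, 1 was called, against 3 by DESeq2, 3 at the thresholds of the study and 2 with lane.

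When 1 library was left out, the counts ran from 0 to 4 (RasLOW), 4 to 8 (RasHIGH), 0 to 0 (RasHIGH against RasLOW and tumour cells of the sites), 3 to 6 (stromal cells of the sites), 8 to 10 and 9 to 9 (stromal against tumour cells in liver and peritoneum), 0 to 3 (difference between site effects), and 7 to 9 and 7 to 8 (liver and peritoneal tumour cells against RasHIGH cultures). Values that changed sign were all uncalled. Between tumour cells of the sites, Notch3 was 0.17 with the block. Between stromal cells of the sites, Dll1 was 0.10 with library totals, 0.063 with all sorted libraries in one model and 0.0053 with the block. In the difference between site effects, Dll1 was -0.0019 by DESeq2, -0.0027 with RLE factors, -0.054 without the filter, -0.0686 with the block and -0.0690 with lane.

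With 1 library left out, sign changes gave these ranges: Notch2 from -0.28 to 0.14 (RasLOW). For RasHIGH against RasLOW cells, Hes1 ran from -0.20 to 0.32, Notch1 from -1.16 to 0.0047, Notch3 from -1.21 to 0.62 and Jag1 from -0.18 to 0.16. Between tumour cells of the sites, Notch3 ran from -0.30 to 0.59 and Dll1 from -0.19 to 0.31. Between stromal cells of the sites, Jag2 ran from -0.052 to 0.23 and Dll1 from -0.13 to 0.18. In the difference between site effects, Dll1 ran from -0.25 to 0.25, Jag1 from -0.031 to 0.22, Notch4 from -0.11 to 0.24 and Dll4 from -0.058 to 0.23. Culture replicate numbers did not pair the samples (correlations from -0.676 to 0.344), and with the replicate block RasHIGH against BMEL cells still had 6 members called. Values near 3 counts, as for Dll4 in BMEL and RasLOW cells and Dll1 in the second BMEL culture, are limited by depth. Among the sorted groups, the mouse block changed no call of a member other than those given above (Dll4 in both site comparisons, Jag1 in stromal cells and Notch2 in liver).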
